A study of Mus musculus with 24 samples.

Results

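The miR-125, miR-99, and miR-100 family was examined in miRNA-Seq data from the brains of mouse pups. Its members were chosen by name, as mmu-miR-125a-5p, mmu-miR-125a-3p, mmu-miR-125b-5p, mmu-miR-99a-5p, mmu-miR-99b-5p, and mmu-miR-100-5p, which are 6 of the 1531 mouse miRNAs counted. The cerebellum, striatum/thalamus, and cortex of the right hemisphere were taken from each of 8 CD1 pups, which gave 24 libraries, each made from 200 ng of RNA with the NEXTFLEX small RNA kit. In the HIBI group (pups 1, 4, 5, and 7) the right common carotid artery was cauterized on postnatal day 9, and after 2 h of recovery the pups breathed 8% oxygen for 30 min. The sham group (pups 2, 3, 6, and 8) had the same anesthesia and neck dissection with no ligation and 30 min of normoxia at the same age. Tissue was collected 30 min after the injury from pups of both sexes. No group had hypoxia without ligation, so the effects of surgery on the artery and of low oxygen cannot be told apart.

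MiRNAs are short RNAs that bind mRNAs mainly through a seed near their 5′ end and lower the stability or translation of those mRNAs. MiR-125 is the vertebrate counterpart of the lin-4 miRNA, a timer of larval development in worms, and miR-125b is known as an abundant brain miRNA with roles in neural differentiation and in the shape of dendritic spines. MiR-99 and miR-100 share another seed and are known for repressing the kinase mTOR.

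Each library held from 1254185 to 3406624 counts of mouse miRNAs. The family took a large share of them. The sham group had 21.9% ± 1.85 of its cerebellar counts on the family, 30.6% ± 4.90 of its striatum/thalamus counts, and 24.3% ± 2.04 of its cortex counts (SD, n = 4). The HIBI group had 19.8% ± 4.32, 32.4% ± 6.95, and 25.4% ± 4.96 in the same order (SD, n = 4). Shares of single libraries ran from 15.2% in the cerebellum of HIBI pup 5 to 39.6% in the striatum/thalamus of HIBI pup 4. All 6 members passed the minimum average of 10 CPM (the count relative to the library's total) in each comparison. Levels below are in CPM, with the 24 libraries scaled by the trimmed mean of M values (TMM). These are bulk tissue samples, in which fewer cells of a type and less RNA per cell cannot be told apart.

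The mature sequences, which show how members share a seed and how close some members are to each other, came from RefSeq (GRCm38.p6). All 6 members and 1291 of the 1531 entries were matched there. Capitals mark the seed, bases 2 to 8.
mmu-miR-125a-5p: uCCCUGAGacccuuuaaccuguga
mmu-miR-125b-5p: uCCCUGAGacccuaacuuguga
mmu-miR-351-5p: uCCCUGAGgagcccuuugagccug
mmu-miR-99a-5p: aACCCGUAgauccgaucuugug
mmu-miR-99b-5p: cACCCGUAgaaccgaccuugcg
mmu-miR-100-5p: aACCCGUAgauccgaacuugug
mmu-miR-125a-3p: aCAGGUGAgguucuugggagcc

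Members fell into 3 groups by seed. MiR-125a-5p and miR-125b-5p had the seed CCCUGAG, shared with miR-351-5p and with miR-6367 and miR-6394, which were at or near 0. MiR-99a-5p, miR-99b-5p, and miR-100-5p had the seed ACCCGUA, and no other matched entry had it. The seed CAGGUGA of miR-125a-3p, the opposite arm of the miR-125a hairpin, was found in no other matched entry. MiR-125a-5p (24 bases) and miR-125b-5p (22 bases) were identical over their first 13 bases. With positions counted from 1 at the 5′ end of the first miRNA named, miR-99a-5p and miR-100-5p differed by U16A alone, and miR-99a-5p and miR-99b-5p by A1C, U11A, U16C, and U21C. How reads that match more than 1 miRNA were counted is not given in the sources used here, so the division of reads between miR-99a-5p and miR-100-5p is uncertain.

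The members come from 3 loci, all on the plus strand of GRCm38.p6, and each locus also holds a let-7 miRNA. On chromosome 17, miR-99b-5p lies at chr17:17830194-17830215 in an intron of the protein-coding gene Spaca6. Downstream of it, miR-125a-5p lies at chr17:17830817-17830840 and miR-125a-3p at chr17:17830855-17830876, both in an exon of Spaca6. On chromosome 9, miR-100-5p lies at chr9:41531437-41531458 and 1 copy of miR-125b-5p (Mir125b-1) at chr9:41581940-41581961, both in introns of the noncoding gene 3110039I08Rik. On chromosome 16, miR-99a-5p lies at chr16:77598940-77598961 and the other copy of miR-125b-5p (Mir125b-2) at chr16:77646279-77646300, both in introns of the noncoding gene Mir99ahg. Both copies give the same 5p sequence, so a count of miR-125b-5p cannot be divided between chromosomes 9 and 16.

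In sham pups the order of mean levels began with miR-125b-5p and ended with miR-100-5p and miR-125a-3p in each region. The mature forms are of nearly equal length, but how well each was captured in a library was not measured. In the sham cerebellum, miR-125b-5p ranked 2 among all mouse miRNAs at 98567 ± 9147 CPM and miR-125a-5p ranked 4 at 69263 ± 19534 CPM (SD, n = 4), and the ranges of these neighbors overlapped. MiR-99b-5p (30944 ± 8274 CPM, rank 11) and miR-99a-5p (26269.9 ± 3713 CPM, rank 12) followed there with overlapping ranges, then miR-100-5p (5908 ± 1593 CPM, rank 30) and miR-125a-3p (216 ± 35.4 CPM, rank 178). In the striatum/thalamus and the cortex of sham pups miR-125b-5p was the most abundant of all mouse miRNAs, at 186267 ± 28061 and 162888 ± 18730.0 CPM (SD, n = 4). MiR-125a-5p ranked 2 in the striatum/thalamus (75632 ± 8978 CPM) and 6 in the cortex (39777 ± 3119 CPM). The order of miR-99a-5p and miR-99b-5p was not the same in the forebrain regions. In the sham striatum/thalamus, miR-99b-5p (20109 ± 4153 CPM) lay above miR-99a-5p (13735 ± 1274 CPM), and in the sham cortex miR-99a-5p (24808 ± 4936 CPM) lay above miR-99b-5p (16234 ± 1681 CPM), with no overlap of the libraries in either region. MiR-100-5p was at 3846 ± 538 and 5705 ± 264 CPM and miR-125a-3p at 199 ± 18.5 and 111 ± 12.6 CPM in the striatum/thalamus and cortex of sham pups (SD, n = 4).

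**Figure D1:**
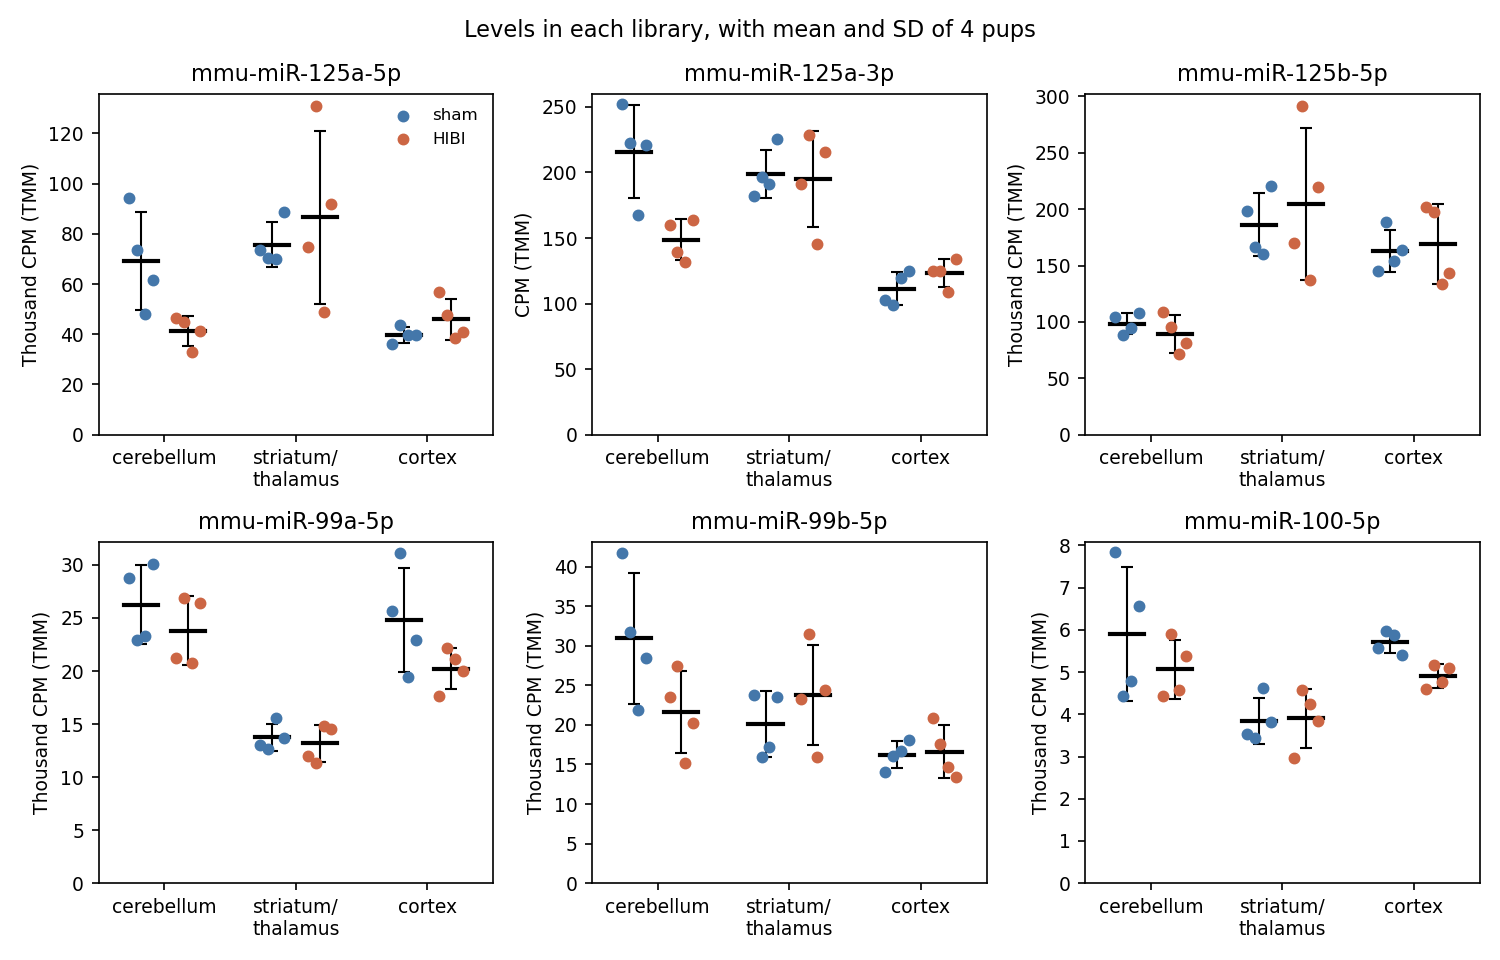
Level of each of the 6 members in each library (CPM) by region, with sham and HIBI pups drawn separately and the mean and SD of each group of 4 marked. MiR-125b-5p was the most abundant member in each region, and miR-99a-5p had less in the striatum/thalamus than in the other regions.

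The first question was how the family differed between regions in sham pups, where 12 libraries were fitted together. The cortex had more miR-125b-5p than the cerebellum and less of all 3 members of the chromosome 17 locus. The cerebellum of sham pups 2, 3, 6, and 8 held 104080.0, 87976, 94194, and 108018 CPM of miR-125b-5p, and their cortex held 145318, 188689, 154073, and 163473 CPM. Each cortex library was above each cerebellum library, with a log2 fold change of 0.68 (SE 0.161, edgeR with Benjamini-Hochberg adjusted p = 0.00208). MiR-125a-5p was at 94062, 73479, 48009, and 61500.3 CPM in the cerebellum of the same pups and at 35992, 43627, 39627, and 39861 CPM in their cortex. All cortex libraries were lower, although the cerebellum of pup 6 came near them, and the log2 fold change was -0.84 (SE 0.189, edgeR adjusted p = 0.00153). MiR-99b-5p was at 41685, 31787, 21818, and 28487 CPM in the cerebellum and at 14049, 16088, 16706, and 18094 CPM in the cortex. It too was lower in all cortex libraries, by a log2 fold change of -0.97 (SE 0.205, edgeR adjusted p = 0.000927). MiR-125a-3p was lower without overlap as well (253, 222, 167, and 221 CPM in the cerebellum and 103, 98.9, 119, and 125 CPM in the cortex), with a log2 fold change of -0.995 (SE 0.179, edgeR adjusted p = 0.000236). MiR-99a-5p (log2 fold change -0.12, SE 0.16) and miR-100-5p (-0.08, SE 0.162) did not pass the test, and both had the opposite sign at lower CPM minimums. Thus 1 of 6 members was higher where 30.7% of the 423 miRNAs tested were, and 3 of 6 were lower where 34% were, so that a difference between these regions was as common among all miRNAs as among the members. Several lists of cell type markers were lower in the cortex too. The erythrocyte list summed to 1282, 1155, 735, and 1325 CPM in the cerebellum of sham pups 2, 3, 6, and 8 and to 454, 672, 571, and 669 CPM in their cortex, without overlap, and miR-486a-5p was lower in the cortex (log2 fold change -1.27, edgeR adjusted p = 0.000362) while miR-451a did not pass the test. The choroid plexus and ciliated epithelium list summed to 10184, 4636, 2558, and 4622 CPM in the cerebellum and to 2045, 2355, 2117, and 2564 CPM in the cortex, with 3 of its 4 tested miRNAs lower after adjustment in edgeR. The oligodendrocyte list, led by miR-219a-2-3p, summed to 5236, 6248, 7084, and 6460.1 CPM in the cerebellum and to 1585, 1131, 1359, and 2009.7 CPM in the cortex, without overlap and with both miRNAs lower after adjustment. The skeletal muscle list went from 519 ± 65.6 to 46.2 ± 14.8 CPM (SD, n = 4). The mean of its miR-206-3p went from 419 to 8.05 CPM, of miR-1a-3p from 90.3 to 36.8 CPM, and of miR-133a-3p from 9.62 to 1.39 CPM. The cerebellum-high list, which stands for a region and not for a cell type, was lower as well. The part of these cells in the lower levels of the chromosome 17 members was not tested.

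The striatum/thalamus of sham pups also had more miR-125b-5p than the cerebellum, but the members of the other seed group were lower there. MiR-125b-5p was at 198312, 166825, 159868, and 220064 CPM in the striatum/thalamus of sham pups 2, 3, 6, and 8. These were all above the cerebellum libraries of sham pups, with a log2 fold change of 0.99 (SE 0.161, edgeR adjusted p = 7.75e-05). MiR-99a-5p was at 28784, 22893, 23290.4, and 30112 CPM in the cerebellum and 13044, 12684, 15547, and 13663 CPM in the striatum/thalamus. Its groups did not overlap, and the log2 fold change was -0.87 (SE 0.161, edgeR adjusted p = 0.000221). MiR-100-5p, at 7838, 4423, 4796, and 6576 CPM in the cerebellum and 3525, 3431, 4616, and 3811 CPM in the striatum/thalamus, was lower with an overlap of the libraries (log2 fold change -0.55, SE 0.162, edgeR adjusted p = 0.00782). MiR-99b-5p, at 23798, 15906, 17178, and 23555 CPM in the striatum/thalamus, was lower with an overlap as well (log2 fold change -0.55, SE 0.203, edgeR adjusted p = 0.0259). MiR-125a-5p (log2 fold change 0.19, SE 0.188) and miR-125a-3p (-0.05, SE 0.177) did not pass the test. Higher levels were found for 1 of 6 members against 34% of the 423 miRNAs tested, and lower levels for 3 of 6 against 31.2%. Cell type markers were lower in the striatum/thalamus as well. The oligodendrocyte list summed to 2669, 3272, 4179.8, and 1837 CPM there, below all cerebellum libraries, with both miRNAs lower after adjustment in edgeR. The choroid plexus and ciliated epithelium list (5500.0 ± 3272 CPM in the cerebellum and 2222 ± 331 CPM in the striatum/thalamus) and the erythrocyte list (1124 ± 269.6 and 781 ± 83.4 CPM) had overlapping libraries, and neither tested erythrocyte miRNA passed the test. The neuron marker miR-9-5p (log2 fold change -0.97, edgeR adjusted p = 0.00155) and miR-206-3p of the muscle list were also lower, as was the cerebellum-high list, which stands for a region. MiR-124-3p of the neuron list had a higher mean in the striatum/thalamus, at 42332 ± 5516 CPM against 34537 ± 8487 CPM in the cerebellum (SD, n = 4). The part of any of these cells was not tested. Without pup 2, neither miR-99b-5p nor miR-100-5p passed edgeR's test, which left 2 members. MiR-99b-5p also missed it without pup 3 (edgeR adjusted p = 0.184), as did miR-100-5p without pup 8 (edgeR adjusted p = 0.0943).

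Between the forebrain regions of sham pups, both arms of miR-125a were lower in the cortex, and miR-99a-5p and miR-100-5p were higher there. The striatum/thalamus of sham pups 2, 3, 6, and 8 held 73494, 70326, 69830.0, and 88877 CPM of miR-125a-5p, each more than any cortex library held. The log2 fold change of cortex against striatum/thalamus was -1.03 (SE 0.19, edgeR adjusted p = 0.000872). MiR-125a-3p, at 182, 197, 191, and 225 CPM in the striatum/thalamus, was lower in the cortex without overlap (log2 fold change -0.94, SE 0.179, edgeR adjusted p = 0.00108). The cortex of the same pups held 25640.0, 31171, 19476, and 22943 CPM of miR-99a-5p, all above the striatum/thalamus (log2 fold change 0.75, SE 0.161, edgeR adjusted p = 0.00207). MiR-100-5p was at 5579.9, 5967, 5876, and 5397 CPM in the cortex. These were also above all striatum/thalamus libraries, by a log2 fold change of 0.47 (SE 0.162, edgeR adjusted p = 0.03). MiR-125b-5p (log2 fold change -0.30, SE 0.16) and miR-99b-5p (-0.42, SE 0.203) did not pass the test. Higher levels in the cortex were found for 2 of 6 members and for 16.5% of the 423 miRNAs tested, and lower levels for 2 of 6 members and for 22% of all. The erythrocyte list was lower in the cortex like the miR-125a arms, with 717, 701, 843, and 862 CPM in the striatum/thalamus and 454, 672, 571, and 669 CPM in the cortex of the same pups, without overlap. Its miR-486a-5p had a log2 fold change of -0.90 (edgeR adjusted p = 0.0082). Its miR-451a had a higher mean in the cortex (225 ± 68.2 CPM) than in the striatum/thalamus (152 ± 140 CPM, SD, n = 4). MiR-219a-2-3p of the oligodendrocyte list, miR-34b-3p of the choroid plexus and ciliated epithelium list, and miR-206-3p were lower too. The sum of the choroid plexus list was not lower in the cortex (2270 ± 236 against 2222 ± 331 CPM), nor was the mean of its miR-204-5p (2125 ± 259 against 1896 ± 369 CPM). Higher in the cortex, like miR-99a-5p, were miR-9-5p of the neuron list (log2 fold change 0.75, edgeR adjusted p = 0.0157), miR-126a-3p of the endothelial list, and the cerebellum-high list. The mean of miR-124-3p of the neuron list was not higher there, at 39684 ± 2982 CPM against 42332 ± 5516 CPM in the striatum/thalamus (SD, n = 4). The part of these cells was not tested. The call of miR-100-5p was lost without pup 2, 3, or 8 (adjusted p = 0.103, 0.156, and 0.101 in edgeR's test), and that of miR-125a-3p with no CPM minimum (adjusted p = 0.101).

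The same regional comparisons were made in the 4 HIBI pups, which are other animals than the sham pups. MiR-125b-5p was again higher in both forebrain regions than in the cerebellum. The libraries of HIBI pups 1, 4, 5, and 7 held 108811, 95823, 71369.7, and 81017 CPM of miR-125b-5p in the cerebellum. They held 170064, 291511, 137497, and 219240.0 CPM in the striatum/thalamus and 201987, 197590.0, 133208, and 143241 CPM in the cortex. Pup 5 was the lowest in each region, and neither forebrain region overlapped the cerebellum. Against the cerebellum, the log2 fold change was 1.09 in the striatum/thalamus (SE 0.249, edgeR adjusted p = 0.0023) and 0.85 in the cortex (SE 0.248, edgeR adjusted p = 0.018). In the cortex of HIBI pups it was the single member of 6 that passed the test against the cerebellum. It was higher, as were 13% of 446 miRNAs tested, and 0 of 6 were lower against 17.9%. At an unadjusted p under 0.05, edgeR found no other member there, and DESeq2 also found miR-125b-5p alone after adjustment. Without pup 4 (adjusted p = 0.0999) or pup 7 (adjusted p = 0.0838) no member remained under 0.05 in that comparison.

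MiR-125a-5p in the HIBI pups was low in the cerebellum. HIBI pups 1, 4, 5, and 7 had 46354, 44948, 32839, and 41386 CPM in the cerebellum, 74672, 130971, 49019.9, and 91685 CPM in the striatum/thalamus, and 56827, 47679.9, 38436, and 40890.1 CPM in the cortex. The striatum/thalamus stood above the cerebellum in all libraries, and the cortex overlapped both regions. The log2 fold change of striatum/thalamus against cerebellum was 0.95 (SE 0.258, edgeR adjusted p = 0.00682), that of cortex against striatum/thalamus -0.87 (SE 0.258, edgeR adjusted p = 0.0242), and that of cortex against cerebellum 0.08 (SE 0.256, edgeR adjusted p = 0.819). MiR-99a-5p of the HIBI pups was at 21225, 26886, 20762, and 26400.4 CPM in the cerebellum, 12009.5, 11327, 14851, and 14529 CPM in the striatum/thalamus, and 17662, 22143, 21123, and 19971 CPM in the cortex. As in sham pups, its striatum/thalamus libraries were below all libraries of the other regions, with a log2 fold change of -0.95 (SE 0.193, edgeR adjusted p = 0.00104) against the cerebellum and with the cortex higher by 0.64 (SE 0.192, edgeR adjusted p = 0.0257). MiR-100-5p was lower in the striatum/thalamus than in the cerebellum (log2 fold change -0.48, SE 0.185, edgeR adjusted p = 0.0447), a call that was lost in 6 of the 8 alternatives other than leaving out a pup and without each pup in turn (adjusted p up to 0.227). MiR-125a-3p was lower in the cortex than in the striatum/thalamus (log2 fold change -0.63, SE 0.208, edgeR adjusted p = 0.0373), but this call was lost without each of the 4 pups in turn (edgeR adjusted p = 0.101 to 0.181) and in 3 of the 8 other alternatives. Cell type markers also differed between the regions of HIBI pups. MiR-486a-5p of the erythrocyte list was at 466 ± 116 CPM in the cerebellum, 793 ± 388 CPM in the striatum/thalamus, and 354 ± 77.5 CPM in the cortex (SD, n = 4), highest in the striatum/thalamus like miR-125a-5p, and it was lower in the cortex than in the striatum/thalamus (log2 fold change -1.12, edgeR adjusted p = 0.0171). MiR-451a of that list had the opposite sign there (1.00, edgeR adjusted p = 0.034). MiR-9-5p of the neuron list, at 92606 ± 34582, 33702 ± 18077, and 66907 ± 11372 CPM in the same order, was lower in the striatum/thalamus than in the cerebellum like miR-99a-5p (log2 fold change -1.54, edgeR adjusted p = 0.00303). The mean of miR-124-3p of that list was not lower there, at 32905 ± 6376, 34164 ± 4235, and 41929 ± 9889 CPM in the same order (SD, n = 4). MiR-219a-2-3p of the oligodendrocyte list was lower in both forebrain regions than in the cerebellum (log2 fold changes of -1.69 for striatum/thalamus and -1.97 for cortex, edgeR adjusted p = 0.00118 and 0.000801). So were miR-206-3p, miR-1a-3p, and the cerebellum-high list, which stands for a region. The part of any of these cell types was not tested. In all, 2 of 6 members were higher in the striatum/thalamus than in the cerebellum against 22.4% of the 446 miRNAs, and 2 of 6 were lower against 27.1%. In the cortex, 1 of 6 was higher than in the striatum/thalamus against 13.7%, and 2 of 6 were lower against 15%. The calls between forebrain regions went to 0 without pup 4, without pup 7, or with no CPM minimum, and that of miR-125a-5p between the striatum/thalamus and cerebellum was lost without pup 4 (adjusted p = 0.0772 in edgeR's test) or pup 7. Upper quartile scaling moved the median of all miRNAs by more than 0.1 log2 in 3 regional comparisons. In sham pups it went from -0.03 to -0.21 for striatum/thalamus against cerebellum and from -0.06 to 0.10 for cortex against striatum/thalamus, and in HIBI pups from -0.14 to -0.01 for cortex against cerebellum. The members called in these 3 comparisons had the same direction under each scaling.

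Ratios of counts within a library do not depend on scaling, and their regional differences over all 8 pups were tested by exact permutation, for which the smallest possible p is 0.00781. Among members with the seed CCCUGAG, miR-125b-5p took a growing part from cerebellum to striatum/thalamus to cortex. Counts of miR-125b-5p per count of miR-125a-5p were 1.11, 1.20, 1.96, and 1.76 in the cerebellum of sham pups 2, 3, 6, and 8, and 2.35, 2.13, 2.17, and 1.96 in that of HIBI pups 1, 4, 5, and 7. In the cortex the same ratio was 4.04, 4.33, 3.89, and 4.10 in the sham pups and 3.55, 4.14, 3.47, and 3.50 in the HIBI pups. The striatum/thalamus lay mostly between them, at 2.70, 2.37, 2.29, and 2.48 in the sham pups and 2.28, 2.23, 2.80, and 2.39 in the HIBI pups. All cortex values were above all values of the other regions. The geometric means were 1.77, 2.43, and 3.86. The log2 difference was 1.13 between cortex and cerebellum and 0.67 between cortex and striatum/thalamus, each higher in 8 of 8 pups with the smallest possible p (exact permutation p = 0.00781, adjusted p = 0.0391 over the 30 ratio tests). Between striatum/thalamus and cerebellum it was 0.46, higher in 7 of 8 pups (exact permutation p = 0.0156, adjusted p = 0.0469).

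In the other seed group, counts of miR-99a-5p per count of miR-99b-5p were lowest in the striatum/thalamus. The ratio was 0.548, 0.797, 0.905, and 0.580 there in sham pups 2, 3, 6, and 8, and 0.516, 0.360, 0.931, and 0.594 in HIBI pups 1, 4, 5, and 7. In the cortex it was 1.83, 1.94, 1.17, and 1.27 in the sham pups and 0.847, 1.26, 1.44, and 1.49 in the HIBI pups. In the cerebellum it was 0.691, 0.720, 1.07, and 1.06 in the sham pups and 0.901, 0.982, 1.36, and 1.30 in the HIBI pups. Cortex exceeded striatum/thalamus in 8 of 8 pups, with a log2 difference of 1.12 (exact permutation p = 0.00781, adjusted p = 0.0391). Striatum/thalamus was below cerebellum in all but 1 of the 8 pups (log2 difference -0.65, exact permutation p = 0.0156, adjusted p = 0.0469). The difference between cortex and cerebellum was 0.47 (exact permutation p = 0.0234) and missed the threshold after adjustment over the ratio tests (adjusted p = 0.0639). Counts of miR-100-5p per count of miR-99a-5p, the pair with 1 base of difference, had geometric means of 0.217, 0.287, and 0.238 in the same order of regions (cerebellum, striatum/thalamus, cortex). The log2 difference between striatum/thalamus and cerebellum was 0.40, higher in 7 of 8 pups (exact permutation p = 0.0156, adjusted p = 0.0469), and the other regional differences of this ratio had an adjusted p above 0.05.

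The hairpins Mir125b-1 and Mir125b-2 give the same 5p sequence but different 3p sequences, so the 3p arms separate the loci on chromosomes 9 and 16. MiR-125b-1-3p was at 563, 456, 509, and 534 CPM in the cerebellum of sham pups 2, 3, 6, and 8, 894, 906, 847, and 978 CPM in the striatum/thalamus, and 470.0, 549, 635, and 581 CPM in the cortex. It was higher in the striatum/thalamus than in both other regions without overlap, with a log2 fold change of 0.88 against the cerebellum (SE 0.151, edgeR adjusted p = 0.000115) and of -0.81 for cortex against striatum/thalamus (SE 0.15, edgeR adjusted p = 0.000934). MiR-125b-2-3p was at 125, 130.4, 147, and 189 CPM in the cerebellum of the same pups, 121, 129.6, 141, and 154 CPM in the striatum/thalamus, and 207, 246, 171, and 160.3 CPM in the cortex. No regional difference of it passed the test in sham pups (smallest adjusted p = 0.1 in edgeR's test). MiR-125b-2-3p per count of miR-125b-1-3p had a geometric mean of 0.135 in the striatum/thalamus, below the 0.303 of the cerebellum and the 0.319 of the cortex. The striatum/thalamus was the lowest region in 8 of 8 pups. Its log2 difference was -1.16 against the cerebellum, with cortex above striatum/thalamus by 1.24, both at the smallest possible p (exact permutation p = 0.00781, adjusted p = 0.0391). Cortex and cerebellum differed by 0.08 (exact permutation p = 0.719). For cortex against cerebellum, miR-125b-1-3p had log2 fold changes of 0.07 in sham pups (SE 0.15) and 0.20 in HIBI pups (SE 0.18), neither of which passed the test. The arms of miR-125a also differed, as counts of miR-125a-3p were between 0.175% and 0.401% of those of miR-125a-5p in the 24 libraries. This share was lower than in the cerebellum in the striatum/thalamus (log2 difference -0.44, in 8 of 8 pups, exact permutation p = 0.00781, adjusted p = 0.0391) and in the cortex (-0.30, in all but 1 of the 8 pups, exact permutation p = 0.0156, adjusted p = 0.0469).

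**Figure D2:**
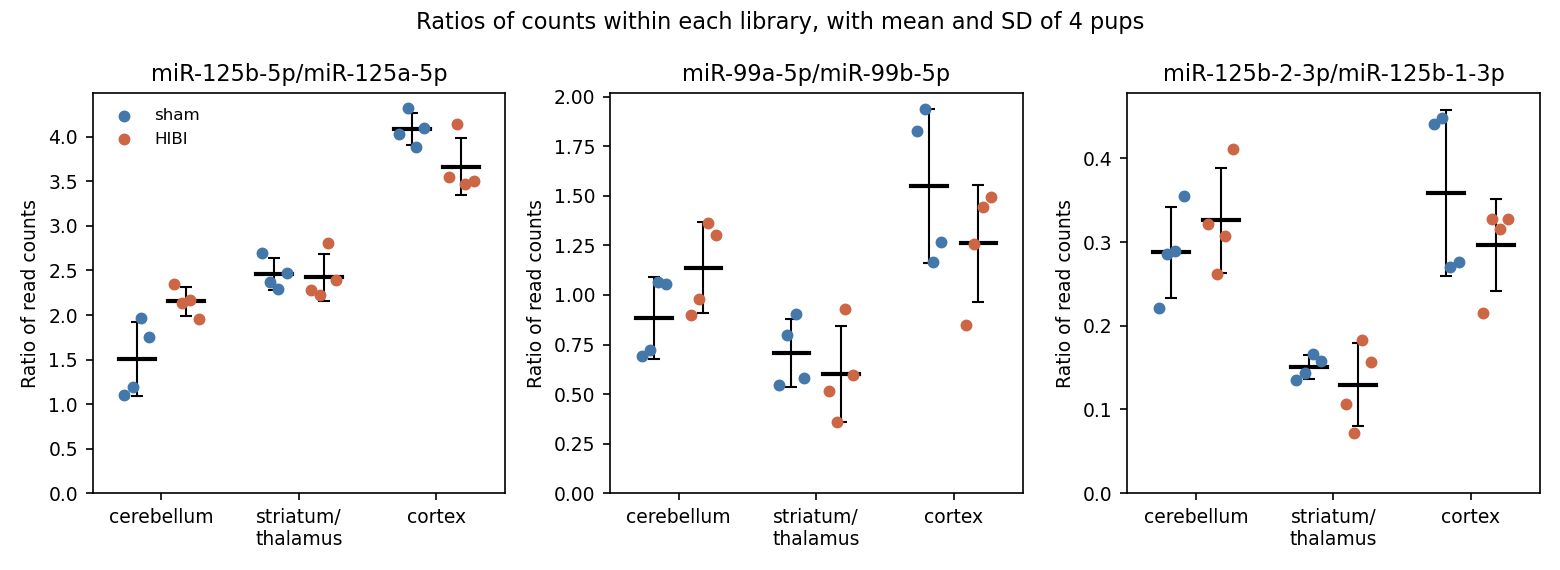
Ratios of counts within each library by region, 1 point per pup with the mean and SD of each group of 4, for miR-125b-5p over miR-125a-5p, miR-99a-5p over miR-99b-5p, and the 3p arms of Mir125b-2 over Mir125b-1. The first was highest in the cortex of each pup, and the last was lowest in the striatum/thalamus of each pup.

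The let-7 miRNAs of the loci did not all follow their neighbors. Let-7e-5p and let-7c-5p each differ from let-7a-5p by 1 base, and miR-10a-5p and miR-10b-5p differ by U12A, so their counts carry the same doubt about reads with several matches as those of miR-99a-5p and miR-100-5p. Let-7e-5p of the chromosome 17 locus was at 5841 ± 981 CPM in the sham cerebellum, 11100.2 ± 3766 CPM in the striatum/thalamus, and 5175 ± 1779.8 CPM in the cortex (SD, n = 4). It was higher in the striatum/thalamus than in the cerebellum (log2 fold change 0.97, edgeR adjusted p = 0.00297), where miR-99b-5p was lower. The 3p arms of let-7e and miR-99b had smaller differences, and whether they differed from those of the 5p arms was not tested. Let-7e-3p was at 96.1 ± 18.0 CPM in the sham cerebellum and 86.4 ± 18.3 CPM in the striatum/thalamus (SD, n = 4), with a log2 fold change of -0.08 (SE 0.219). MiR-99b-3p was at 159 ± 16.2 CPM in the sham cerebellum, against 127 ± 14.0 CPM in the striatum/thalamus and 137 ± 19.1 CPM in the cortex (SD, n = 4), and its log2 fold changes of -0.26 in both forebrain regions against the cerebellum (SE 0.182 and 0.181) had the sign of those of miR-99b-5p and did not pass the test. Let-7c-5p, which comes from chromosome 16 and from another locus, was lower in both forebrain regions than in the cerebellum (log2 fold change -1.25 in the cortex, edgeR adjusted p = 0.000197, and -1.05 in the striatum/thalamus, adjusted p = 0.000638). MiR-351-5p, with the seed of miR-125, was far less abundant than either at 1107 ± 119.7 CPM in the sham cerebellum (SD, n = 4), and was lower in the cortex (log2 fold change -0.50, edgeR adjusted p = 0.0236). The related miR-10a-5p and miR-10b-5p had their highest sham means in the cerebellum. Their log2 fold changes were -5.11 and -3.20 for sham cortex against cerebellum (edgeR adjusted p = 3.86e-06 for each). MiR-10a-5p was uneven there, at 236, 1208, 355, and 387 CPM in the cerebellum of sham pups 2, 3, 6, and 8 (546 ± 446 CPM, SD, n = 4). Pup 3 was also its highest sham cortex library (34.8 CPM). The arms miR-99a-3p, miR-100-3p, and let-7a-2-3p were near 0, with at most 14 counts in any library.

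HIBI was next compared with sham within each region. In the cerebellum miR-125a-5p and, less firmly, miR-125a-3p were lower in HIBI pups, and no difference passed adjustment over all miRNAs. The cerebellum libraries of sham pups 2, 3, 6, and 8 held 94062, 73479, 48009, and 61500.3 CPM of miR-125a-5p, and those of HIBI pups 1, 4, 5, and 7 held 46354, 44948, 32839, and 41386 CPM. All HIBI libraries were below all sham libraries, although sham pup 6 and HIBI pup 1 were close, and as unscaled shares of counts the groups overlapped (5.05% to 7.90% in sham and 3.45% to 5.75% in HIBI). The log2 fold change was -0.72 (SE 0.233), with an unadjusted p of 0.00949 and an adjusted p = 0.432 from edgeR. MiR-125a-3p was at 253, 222, 167, and 221 CPM in the sham cerebellum and at 160.1, 139.6, 132, and 163 CPM in the HIBI cerebellum. After TMM scaling these groups did not overlap either, with sham pup 6 again the lowest of its group, but as unscaled shares they did (0.0176% to 0.0239% in sham and 0.0139% to 0.0199% in HIBI). The log2 fold change was -0.51 (SE 0.219, unadjusted p of 0.0383, edgeR adjusted p = 0.432). MiR-99b-5p, of the same locus, was at 41685, 31787, 21818, and 28487 CPM in sham pups and 23547, 27380.0, 15242, and 20280.5 CPM in HIBI pups. The groups overlapped, and the log2 fold change was -0.49 (SE 0.242, unadjusted p of 0.0636).

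The other members had smaller differences in the cerebellum, with log2 fold changes of -0.11 (SE 0.196) for miR-125b-5p, -0.12 (SE 0.18) for miR-99a-5p, and -0.19 (SE 0.203) for miR-100-5p. The members' median was -0.34 beside 0.11 for the 434 miRNAs tested, and all 6 values were negative under TMM, but with scaling by library size only miR-125b-5p was at 0.06 and miR-99a-5p at 0.05. Scaling moved the median of all miRNAs, which was 0.27 with library size only and -0.02 with upper quartile scaling. By a fold change above 1.5 with an unadjusted p under 0.05, 1 of 6 members was counted (miR-125a-5p) beside 7.83% of all miRNAs. That count was 0 with library size only or without sham pup 2, and 3 with upper quartile scaling or without sham pup 6. An unadjusted p under 0.05 was found for 2 of 6 members beside 10.1%, and groups without overlap after TMM scaling for 2 of 6 beside 3.92%, both of which overlapped as unscaled shares. No member passed adjustment (0 of 6 in edgeR beside 0% of all miRNAs tested, and 0 in DESeq2), and miR-125a-5p kept an unadjusted p under 0.05 when any 1 pup was left out (log2 fold change -0.89 to -0.57). MiR-125a-3p kept it in 3 of the 8 fits without a pup (log2 fold change -0.64 to -0.45, with an unadjusted p up to 0.0934 in edgeR) and in 5 of the 9 other alternatives, and it lost it with library size only (-0.34, unadjusted p of 0.149).

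**Figure D3:**
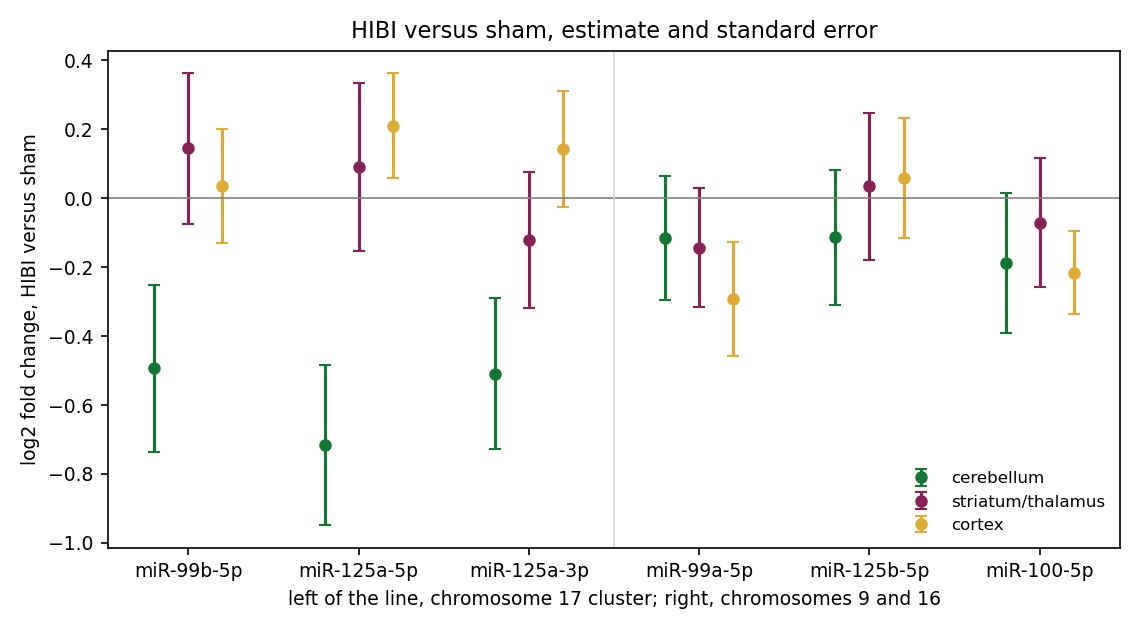
Log2 fold change of HIBI against sham for each member in each region, with bars of 1 SE from edgeR's fit. In the cerebellum miR-125a-5p (-0.72), miR-125a-3p (-0.51), and miR-99b-5p (-0.49) lay lowest.

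Lists of marker miRNAs for cell types were read beside this comparison. The erythrocyte list (miR-486a-5p, miR-451a, and miR-144-3p) summed to 1282, 1155, 735, and 1325 CPM in the cerebellum of sham pups 2, 3, 6, and 8 and to 658, 787, 579, and 725 CPM in HIBI pups 1, 4, 5, and 7. Sham pup 6 was the lowest of its group here too and lay within the HIBI range. The most abundant, miR-486a-5p, was lower in HIBI (log2 fold change -0.86, SE 0.272, unadjusted p of 0.00817 in edgeR), which made 1 of the 2 tested. MiR-451a, at 266 ± 172 CPM in sham and 221 ± 79.0 CPM in HIBI, did not pass, and miR-144-3p was near 0 (0.932 and 0.714 CPM). The choroid plexus list, led by miR-204-5p, summed to 10184, 4636, 2558, and 4622 CPM in sham and to 3330.0, 2826, 2764, and 4054 CPM in HIBI, with 0 of 4 tested at an unadjusted p under 0.05 in edgeR. Sham pups 2 and 6 were the highest and lowest of their group in this list and in miR-125a-5p. The part of these cells in the lower level of miR-125a was not tested. Of the skeletal muscle list 2 of 3 had an unadjusted p under 0.05 in the cerebellum, with miR-1a-3p higher (log2 fold change 1.05) and miR-206-3p lower (-0.53). None of the tested miRNAs did in the cerebellum in the lists for brain neurons (0 of 2), endothelial and mural cells (0 of 3), myeloid cells (0 of 1), and oligodendrocytes (0 of 2). The cerebellum-high list (miR-195a-5p and miR-497a-5p, 0 of 2) had sums of 922 ± 141 CPM in the cerebellum, 60.2 ± 16.7 CPM in the striatum/thalamus, and 228 ± 57.6 CPM in the cortex of sham pups (SD, n = 4). As the list was chosen with earlier results of these data known, these sums are not an independent check of the region labels.

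In the striatum/thalamus no member passed the test between HIBI and sham. HIBI pup 4 was high and HIBI pup 5 low for both miR-125 members, so that the HIBI group was more spread than the sham group. MiR-125a-5p was at 73494, 70326, 69830.0, and 88877 CPM in sham pups 2, 3, 6, and 8 and at 74672, 130971, 49019.9, and 91685 CPM in HIBI pups 1, 4, 5, and 7. The HIBI range enclosed the sham range, with a log2 fold change of 0.09 (SE 0.244), which was -0.07 without pup 4. MiR-125b-5p likewise ran from 137497 to 291511 CPM in HIBI and from 159868 to 220064 CPM in sham (log2 fold change 0.03, SE 0.214). The remaining members had log2 fold changes between -0.14 (miR-99a-5p) and 0.14 (miR-99b-5p), and the members' median was -0.02 beside -0.03 for the 436 miRNAs tested. In edgeR 0 of 6 members had a fold change above 1.5 with an unadjusted p under 0.05 (2.75% of all), 0 of 6 had an unadjusted p under 0.05 at any fold (3.21%), 0 of 6 passed adjustment (0%), and 0 of 6 had groups without overlap (1.83%). DESeq2 also found 0 after adjustment. The erythrocyte list summed to 717, 701, 843, and 862 CPM in sham and to 815, 1420.2, 510.4, and 786 CPM in HIBI, so HIBI pups 4 and 5 were its highest and lowest libraries too. Its miR-486a-5p had a higher mean in HIBI (793 CPM against 628 CPM in sham), and its miR-451a a lower mean (89.6 CPM against 152 CPM). In the marker lists miR-124-3p of the neuron list was lower in HIBI (log2 fold change -0.40, unadjusted p of 0.0307) and miR-34b-3p of the choroid plexus and ciliated epithelium list higher (0.75, unadjusted p of 0.0157).

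In the cortex no member passed the test either. MiR-100-5p came nearest to a separation. Sham pups 2, 3, 6, and 8 had 5579.9, 5967, 5876, and 5397 CPM and HIBI pups 1, 4, 5, and 7 had 4592, 5179, 4763, and 5089.5 CPM of it. All HIBI libraries were lower than all sham libraries, but as unscaled shares the groups overlapped (0.509% to 0.574% in sham and 0.457% to 0.521% in HIBI). The log2 fold change was -0.22 (SE 0.121, unadjusted p of 0.0988, edgeR adjusted p = 0.914). MiR-99a-5p, its near-identical relative, had a log2 fold change of -0.29 (SE 0.165), with sham libraries from 19476 to 31171 CPM and HIBI libraries from 17662 to 22143 CPM. MiR-125a-5p was at 35992, 43627, 39627, and 39861 CPM in sham and at 56827, 47679.9, 38436, and 40890.1 CPM in HIBI. The highest libraries were those of HIBI pups 1 and 4, the ranges overlapped, and the log2 fold change was 0.21 (SE 0.152). The values of miR-125b-5p (0.06), miR-99b-5p (0.03), and miR-125a-3p (0.14) were within 1 SE of 0, and the members' median was 0.05 beside -0.02 for the 410 miRNAs tested. Among members 0 of 6 had a fold change above 1.5 with an unadjusted p under 0.05 (3.41% of all), 0 of 6 an unadjusted p under 0.05 (4.63%), and 0 of 6 an adjusted p under 0.05 in edgeR (0.244%, 0 members in DESeq2). Groups did not overlap for 1 of 6 members beside 3.41% of all miRNAs.

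Whether the HIBI effect differed between the forebrain regions and the cerebellum was tested as an interaction in 1 fit of the 24 libraries, as the mean effect of cortex and striatum/thalamus minus that of cerebellum. The 3 members of the chromosome 17 locus had the largest values. They were 0.94 for miR-125a-5p (SE 0.286, unadjusted p of 0.00295, edgeR adjusted p = 0.151), 0.66 for miR-99b-5p (SE 0.278, unadjusted p of 0.0267, edgeR adjusted p = 0.242), and 0.60 for miR-125a-3p (SE 0.217, unadjusted p of 0.011, edgeR adjusted p = 0.217). The values of miR-125b-5p (0.24, SE 0.256), miR-100-5p (0.12, SE 0.215), and miR-99a-5p (-0.04, SE 0.202) were smaller than their errors. An unadjusted p under 0.05 was thus found for 3 of 6 members beside 16.1% of the 435 miRNAs tested, and an adjusted p under 0.05 for 0 of 6 beside 0% (edgeR, with 0 in DESeq2 as well). Without sham pup 2, with library size only, or with no CPM minimum, 1 member had an unadjusted p under 0.05. Of the 8 fits without a pup, miR-99b-5p kept it in 5 (unadjusted p up to 0.106 in edgeR), miR-125a-3p in 7, and miR-125a-5p in 8. Library size only also moved the median of all miRNAs from -0.04 to -0.22, and the values of the 3 members stayed positive under each scaling. The interaction of miR-486a-5p from the erythrocyte list was 1.02 (SE 0.355, unadjusted p of 0.00804). MiR-451a of that list had a lower mean in HIBI than in sham in each region. Its means in HIBI and sham were 221 and 266 CPM in the cerebellum, 89.6 and 152 CPM in the striatum/thalamus, and 176 and 225 CPM in the cortex.

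Ratios of counts in HIBI and sham were compared in 15 of the 30 ratio tests, with 70 arrangements in each, and none had an exact permutation p under 0.05. The smallest possible p is 0.0286 here, too large for a single fully separated ratio to pass adjustment over the 30 tests, so the absence of a call says little. The lowest p was that of miR-125b-5p per count of miR-125a-5p in the cerebellum. Its geometric mean was 2.15 in HIBI and 1.46 in sham, a log2 difference of 0.56 (exact permutation p = 0.0571, adjusted p = 0.132). Sham pup 6 had the only sham value that reached the HIBI range, at 1.96. With each pup left out in turn the log2 difference ran from 0.42 to 0.70. In the striatum/thalamus this difference was -0.02 and in the cortex -0.16 (exact permutation p = 0.771 and 0.114).

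Levels of members moved together to different degrees across the 24 libraries. Pearson's r of log2(CPM + 1) is given as a description, over libraries that share pups, regions, and scaling. MiR-125a-5p had r = 0.852 with miR-125a-3p, 0.702 with miR-99b-5p, and 0.487 with miR-125b-5p. After the mean of each of the 6 groups was removed these were 0.790, 0.888, and 0.813, so that libraries of 1 group with more miR-125a-5p also had more miR-99b-5p and miR-125b-5p. For miR-125a-5p and miR-99b-5p, entries of miR-486 did so more closely than any member. After group means were removed, r was 0.923 between miR-125a-5p and miR-486b-5p and 0.932 between miR-99b-5p and miR-486a-5p. Other miRNAs also had high values, such as miR-1198-5p with miR-125a-5p (0.864) and miR-320-3p with miR-99b-5p (0.848). For miR-125a-3p, miR-486b-5p (0.748) and miR-486a-5p (0.745) were below miR-125a-5p (0.790). MiR-451a of the erythrocyte list was not among the 3 miRNAs most like any member. The near-identical miR-99a-5p and miR-100-5p had r = 0.838, and 0.570 after group means were removed. Between the seed groups, miR-125a-5p and miR-99a-5p had r = -0.558, which was -0.0949 without group means. Among the other miRNAs above 10 CPM, the most similar to miR-125a-5p was miR-1198-5p (r = 0.948), followed by miR-328-3p (0.896) and miR-486b-5p (0.895). MiR-99b-5p was most like miR-486a-5p of the erythrocyte list (0.913), miR-486b-5p (0.907), and miR-320-3p (0.900). MiR-125a-3p was most like miR-486b-5p (0.887), miR-486a-5p (0.882), and miR-5126 (0.855). Whether the entries miR-486a-5p and miR-486b-5p hold separate reads was not examined, so they cannot be taken as separate signals. MiR-125b-5p was most like miR-485-3p (0.953), miR-668-3p (0.942), and miR-149-5p (0.928). MiR-99a-5p was most like miR-181a-5p (0.929), miR-181b-5p (0.926), and miR-194-5p (0.883), and miR-100-5p was most like miR-181b-5p (0.872), miR-99a-5p (0.838), and miR-26a-5p (0.827).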

How the data were processed

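Reads had been matched by the authors with Bowtie2 against mature mouse miRNAs from miRBase, and raw counts of each library were deposited. Versions, the miRBase release, and the rule for reads with several matches are not given in the sources used here. Beside the counts stand the authors' edgeR log2 fold change, average log2 CPM, p-value, and false discovery rate, which were not used. The 20 castor bean entries (84 counts, 0.000156%) were left out.

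Fits were made with edgeR 4.0.16 and DESeq2 1.42.0 (limma 3.58.1 and R 4.3.3), and tables and figures with Python 3.11.15, numpy 2.4.6, pandas 2.3.3, and matplotlib 3.10.9. MiRNAs with an average above 10 CPM over the libraries of a fit were scaled by TMM and compared by edgeR's quasi-likelihood test, with Benjamini-Hochberg adjustment over all miRNAs tested and SEs computed from the test statistic. The HIBI comparisons used the 8 libraries of a region, the regional comparisons the 12 libraries of a treatment group, and the interaction all 24. All replicate libraries differed by more than counting noise (smallest chi-square 26.5 per degree of freedom). Ratios had 0.5 added to each count and were compared by two-sided exact permutation tests (30 in all, Benjamini-Hochberg adjusted). The same animal gave all 3 regions, so regional libraries are paired by pup. Over 435 miRNAs, what set a pup apart from its group correlated between regions, with a median r of 0.270 between cortex and cerebellum, 0.160 between striatum/thalamus and cerebellum, and 0.190 between cortex and striatum/thalamus, above 0.1 in 7, 5, and 5 of the 8 pups. The fits reported had no term for the pup, and those with it were alternatives.

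The miRNAs named were the members, the other arms and let-7 miRNAs of their loci, miRNAs with a member's seed, miR-351-5p, miR-10a-5p, and miR-10b-5p, the 3 miRNAs most like each member, and the cell type markers. Members and lists were chosen with earlier results of these data known. Positions of genes came from GENCODE M21. The code was tested on simulated data. Alternatives were other scalings, CPM minimums, and tests, and leaving out each pup.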

Additional observations from a re-analysis of the deposited data

Results flagged for a closer look

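A difference of the HIBI effect between the forebrain regions and the cerebellum had an unadjusted p under 0.05 in edgeR's interaction test for 3 members, all of the chromosome 17 locus. The log2 difference was 0.94 for miR-125a-5p, 0.60 for miR-125a-3p, and 0.66 for miR-99b-5p, and none had an adjusted p under 0.05 (0.151, 0.217, and 0.242). Each of the 36 groups of 4 libraries (6 members, 3 regions, HIBI and sham) was also examined by Dixon's rule for a library far from the others, and 0 were found.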

How the results depend on the processing

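Of 498 member values under alternatives other than leaving out a pup, 471 kept their direction and their side of an adjusted p of 0.05, 12 lost a call by adjusted p, and 15 changed sign. None of those that changed sign had passed the test. With library size only, the HIBI effect in the cerebellum was 0.0612 for miR-125b-5p and 0.0470 for miR-99a-5p, sham cortex against cerebellum was 0.0106 for miR-100-5p, HIBI striatum/thalamus against cerebellum was -0.00866 for miR-99b-5p, and the interaction was -0.0937 for miR-100-5p. With an average CPM above 1, sham cortex against cerebellum was 0.12 for miR-99a-5p and 0.15 for miR-100-5p. With no CPM minimum these were 0.12 and 0.16, HIBI striatum/thalamus against cerebellum was -0.0186 for miR-99b-5p, and the interaction was -0.0167 for miR-100-5p. With upper quartile scaling, HIBI cortex against cerebellum was 0.0134 for miR-100-5p and the interaction 0.0146 for miR-99a-5p. For miR-100-5p the HIBI effect in the striatum/thalamus was 0.0171 with scaling computed without the 6 members and 0.0217 with all 24 libraries in 1 fit. By unadjusted p, miR-125a-3p in the cerebellum stayed under 0.05 in 5 of 9 alternatives, miR-99b-5p there came under it in 4 of 9, and both interactions lost it in 2 of 8. The cause of these changes was not tested.

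The count of members by fold change and unadjusted p in the cerebellum was 0 with library size only and 3 with upper quartile scaling (1 as reported). Calls between forebrain regions of HIBI pups went from 3 to 0 with no CPM minimum, and members with an unadjusted p under 0.05 for the interaction went from 3 to 1 with library size only and to 1 with no CPM minimum.

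With each pup left out in turn, 285 of 336 member values kept direction and call by adjusted p, 23 lost a call, and 28 changed sign. Counts of members ran from 0 to 3 in the cerebellum by fold change and unadjusted p, 2 to 4 for sham striatum/thalamus against cerebellum, 3 to 4 for sham cortex against striatum/thalamus, 0 to 1, 2 to 3, and 0 to 2 for HIBI cortex against cerebellum, striatum/thalamus against cerebellum, and cortex against striatum/thalamus, and 1 to 3 for the interaction by unadjusted p. The HIBI effect in the striatum/thalamus ran from -0.0660 to 0.30 for miR-125a-5p, -0.16 to 0.0553 for miR-125a-3p, -0.0776 to 0.24 for miR-125b-5p, -0.22 to 0.0106 for miR-99a-5p, and -0.13 to 0.12 for miR-100-5p. In the cortex it ran from -0.0581 to 0.16 for miR-125b-5p and -0.0740 to 0.14 for miR-99b-5p. Sham cortex against cerebellum ran from -0.26 to 0.0895 for miR-99a-5p and -0.18 to 0.0780 for miR-100-5p, sham striatum/thalamus against cerebellum from -0.13 to 0.0265 for miR-125a-3p, HIBI cortex against cerebellum from -0.10 to 0.0137 for miR-100-5p, and HIBI striatum/thalamus against cerebellum from -0.0170 to 0.18 for miR-99b-5p. The interaction ran from -0.13 to 0.0461 for miR-99a-5p and -0.0676 to 0.27 for miR-100-5p. Log2 ratios of HIBI to sham ran from -0.15 to 0.0543 for miR-125a-3p over miR-125a-5p in the cortex, -0.10 to 0.0221 for miR-125b-5p over miR-125a-5p in the striatum/thalamus, and, for miR-100-5p over miR-99a-5p, -0.11 to 0.0503 in the cerebellum, -0.0739 to 0.16 in the striatum/thalamus, and -0.0347 to 0.18 in the cortex. MiR-125b-2-3p over miR-125b-1-3p ran from -0.0524 to 0.17 for cortex against cerebellum.

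With the pup as a replicate block, which pairs the regions, no member call changed. The members called were 4, 4, and 4 in the sham comparisons and 1, 4, and 3 in the HIBI comparisons, and the interaction of miR-125a-5p was 0.90 (edgeR adjusted p = 0.109). With 4 pups in a group, differences of the size seen for most members in HIBI against sham could not be told from 0.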
